A study of Brassica rapa with 12 samples.

Results

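The genes described here encode the cytochrome P450 enzymes that open glucosinolate synthesis; glucosinolates are sulfur-containing defence compounds of cabbages and their relatives. They are 7 of the 42186 features counted in a study of *Brassica rapa* seedlings, and were chosen by ID from a list that names them after *Arabidopsis thaliana* genes. The list places 3 in the aliphatic branch, namely Bra026058 (CYP79F1) and the CYP83A1 copies Bra016908 and Bra032734. It places 4 in the indolic branch, namely the CYP79B2 copies Bra010644 and Bra011821, Bra030246 (CYP79B3) and Bra034941 (CYP83B1). The deposited tables hold IDs without gene names, and 0 of the 7 IDs were found in the RefSeq gene table, so the names rest on that list, and no position, length or sequence is given.

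In *Arabidopsis*, CYP79 enzymes convert an amino acid to an aldoxime and CYP83 enzymes oxidise the aldoxime further. CYP79F1 acts on chain-elongated methionine derivatives and CYP83A1 follows it, which leads to aliphatic glucosinolates. CYP79B2 and CYP79B3 act on tryptophan, and CYP83B1 takes up the indole-3-acetaldoxime that they form, a compound that plants also use on routes to auxin and to the phytoalexin camalexin. The series title names glucosinolate content in vegetable-type and oilseed-type plants as the subject.

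RNA of whole seedlings aged 1 week was sequenced from 4 groups with 3 libraries each. The groups were LP08 in light, LP08 in the dark, Chiifu in light and Chiifu in the dark. Chiifu belongs to the Chinese cabbages, and the labels give LP08 only by its name. The light treatment was a day of 16 h light followed by 8 h dark, the dark treatment was 24 h without light, and for how many days each ran is not stated. Library totals ranged from 48773088 to 71764062 reads, and a count of 0 in the smallest library allows up to 0.0615 counts per 1000000 reads (CPM). The labels do not say whether replicates are separate plants or pools, so the p-values speak for the spread among these libraries alone, and part of it may be technical. Organ markers could not be checked because the IDs carry no names, and in whole seedlings fewer cells of a type and less RNA per cell cannot be told apart. All 7 members passed the filter on low counts, and levels below are in CPM scaled by edgeR's TMM factors (trimmed mean of M values). Because lengths are unknown, levels are compared between groups for a gene and not between genes.

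The aliphatic members had their highest level in light-grown LP08, and the group means of each indolic member spanned a smaller fold range than those of any aliphatic member. Light-grown LP08 also had the highest mean of the indolic members Bra030246, without overlap, and Bra010644, with overlap. In LP08, 3 of 3 aliphatic members rose in light against 33.1% of the 31239 tested features called higher, and 1 of 4 indolic members rose. In Chiifu, 2 of 3 aliphatic and 4 of 4 indolic members rose in light, where 33.9% of tested features were called higher. Calls are at a Benjamini-Hochberg adjusted p under 0.05 over all tested features in edgeR's quasi-likelihood test. Each fold change is given on the log2 scale with its standard error (SE).

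**Figure D1:**
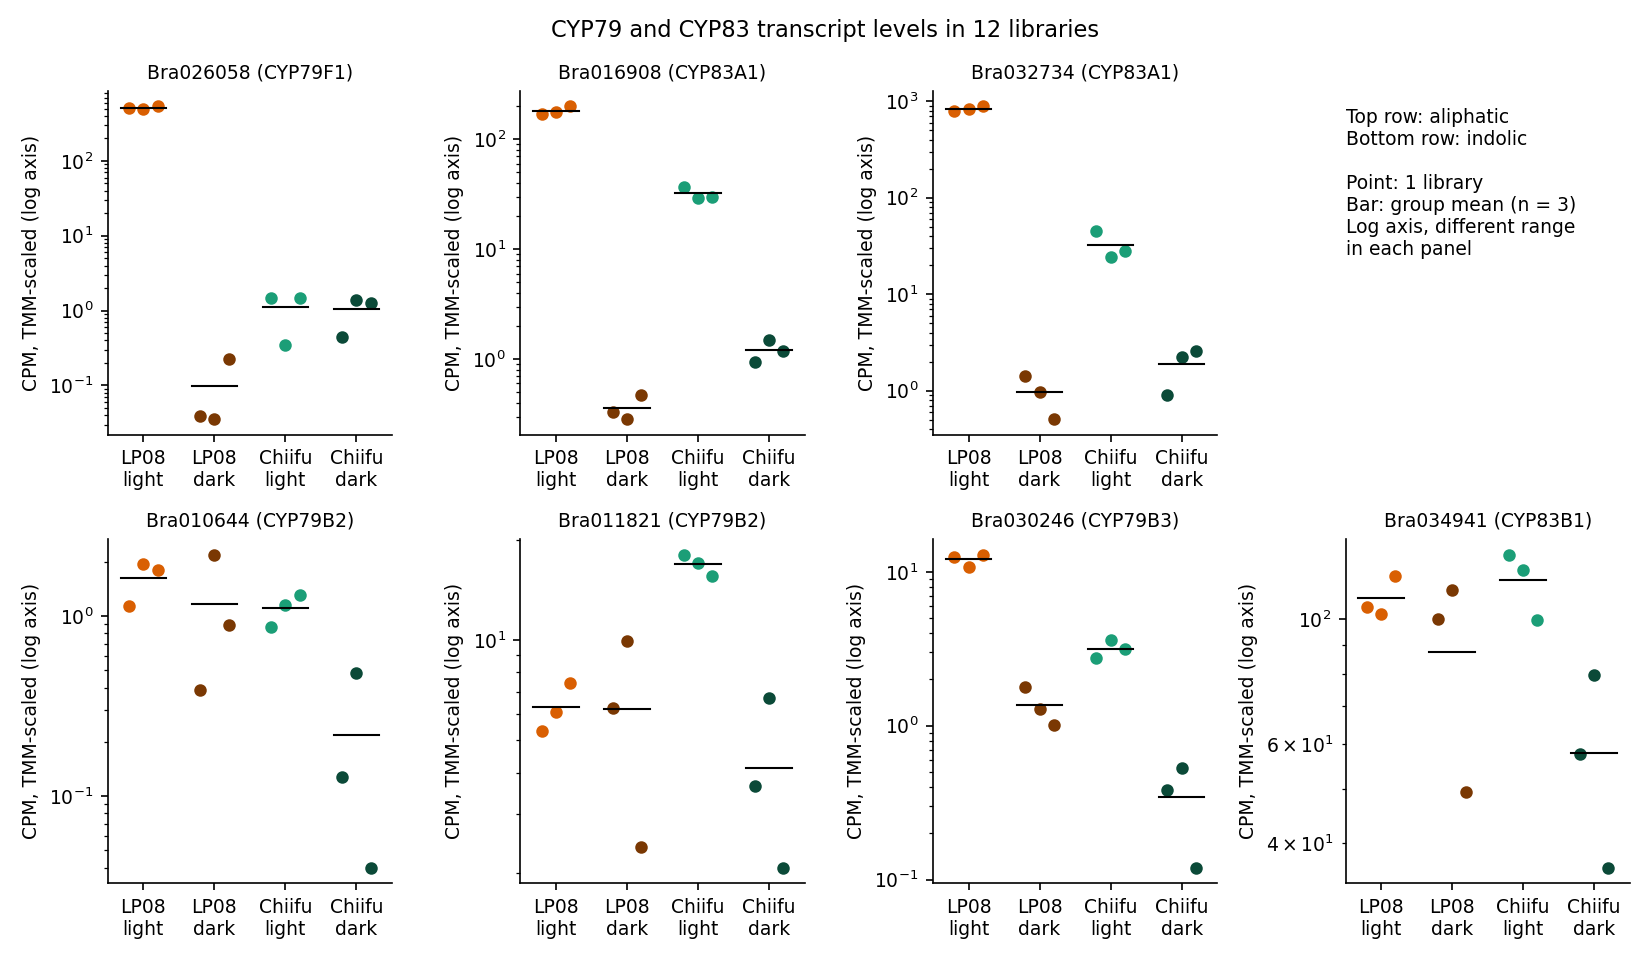
Level of each member in each library, in TMM-scaled CPM on a log axis whose range differs between panels; points are libraries, bars are group means (n = 3), the top row is aliphatic and the bottom row indolic. The 3 aliphatic members reach 170.3 CPM or more in every LP08 light library and 0.0356 to 1.42 CPM in LP08 dark libraries.

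Bra026058 (CYP79F1), the entry enzyme of the aliphatic branch, was abundant in a single group. It had 502, 488 and 539 CPM in LP08 light libraries and 0.0390, 0.0356 and 0.224 CPM in LP08 dark libraries. Chiifu libraries had 1.48, 0.349 and 1.47 CPM in light and 0.443, 1.38 and 1.28 CPM in the dark. Every LP08 light library lay above every other library, while the Chiifu groups overlapped. The LP08 light response was a log2 fold change of 12.34 (SE 0.850, adjusted p = 1.21e-07), a fitted 5172-fold difference, and 0.0384% of tested features changed at least as much. It rests on 15 reads in the 3 LP08 dark libraries, 11 of them in replicate 3, and without that library it was 13.66. In Chiifu the light response was 0.09 (SE 0.532, adjusted p = 0.889), with a 95% interval of -1.08 to 1.26. The difference between light and dark in Chiifu was thus within the spread between libraries. LP08 exceeded Chiifu in light by 8.85 (SE 0.491, adjusted p = 9.94e-07), a 462-fold difference. In the dark LP08 was lower by a log2 fold change of -3.39 (SE 0.874, adjusted p = 0.00301), or -4.72 without LP08 dark replicate 3. The order of group means was LP08 light, Chiifu light, Chiifu dark and LP08 dark, and only the middle pair overlapped among neighbours.

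The CYP83A1 copies, which act on the product of the CYP79F1 step, rose in light in both lines. Bra016908 had 170.3, 177 and 200.1 CPM in LP08 light libraries and 0.331, 0.285 and 0.468 CPM in LP08 dark libraries. In Chiifu it had 37.0, 29.3 and 30.1 CPM in light and 0.934, 1.48 and 1.18 CPM in the dark. The 4 groups did not overlap and ran from LP08 light through Chiifu light and Chiifu dark to LP08 dark. The light response was 8.98 in LP08 (SE 0.219, adjusted p = 5.50e-10) and 4.74 in Chiifu (SE 0.182, adjusted p = 5.89e-09), which are 504.9-fold and 26.7-fold. LP08 was higher than Chiifu in light, by 2.51 (SE 0.167, adjusted p = 3.96e-07), and lower in the dark, at -1.74 (SE 0.231, adjusted p = 5.07e-05).

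Bra032734, the other CYP83A1 copy, had 789, 824 and 889 CPM in LP08 light libraries and 1.42, 0.961 and 0.509 CPM in LP08 dark libraries. Its Chiifu libraries had 45.3, 24.4 and 28.2 CPM in light and 0.902, 2.22 and 2.60 CPM in the dark. The order of groups was that of Bra016908, except that the dark groups of the lines overlapped. The light response was 9.75 in LP08 (SE 0.399, adjusted p = 2.55e-08) and 4.10 in Chiifu (SE 0.378, adjusted p = 4.10e-06). In light LP08 was 25.5-fold higher than Chiifu, a log2 fold change of 4.67 (SE 0.360, adjusted p = 3.37e-06). The dark difference of -0.97 did not pass the test (SE 0.415, adjusted p = 0.0669, 95% interval -1.88 to -0.07). It passed in 4 of 22 other settings, among them without Chiifu dark replicate 1 (-1.31, adjusted p = 0.0117) or LP08 dark replicate 1 (-1.36, adjusted p = 0.0307). It was smaller without LP08 dark replicate 3 (-0.67, adjusted p = 0.210), without Chiifu dark replicate 3 (-0.70, adjusted p = 0.229) and without both (-0.40, adjusted p = 0.475).

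Bra030246 (CYP79B3), a tryptophan-using entry enzyme, was the indolic member in which all 4 groups were apart. It had 12.5, 10.8 and 12.9 CPM in LP08 light libraries and 1.79, 1.28 and 1.02 CPM in LP08 dark libraries. Chiifu had 2.74, 3.59 and 3.13 CPM in light and 0.380, 0.529 and 0.120 CPM in the dark, and none of the 4 groups overlapped. The light response was 3.14 in LP08 (SE 0.322, adjusted p = 5.34e-06) and 3.15 in Chiifu (SE 0.362, adjusted p = 1.11e-05), or 8.83-fold and 8.90-fold. The line difference was 1.94 in light (SE 0.311, adjusted p = 4.00e-04) and 1.95 in the dark (SE 0.372, adjusted p = 0.000876), higher in LP08 each time. The difference of the light responses, LP08 minus Chiifu, was -0.01 with a 95% interval of -1.07 to 1.05, so a difference of up to about 1 on the log2 scale in either direction remains possible.

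The CYP79B2 copies catalyse the same step as CYP79B3, and their light response passed the test in Chiifu and not in LP08. That alone does not show that the lines differ. The direct edgeR test of the difference of responses was passed by Bra011821 (-2.003, adjusted p = 0.0376), a call lost in 10 of 21 other settings. Bra010644 did not pass it (-1.80, adjusted p = 0.177). Bra011821 had 5.34, 6.08 and 7.43 CPM in LP08 light libraries and 6.26, 9.95 and 2.40 CPM in LP08 dark libraries. It had 18.0, 17.0 and 15.5 CPM in Chiifu light libraries and 3.64, 6.70 and 2.08 CPM in Chiifu dark libraries. Chiifu light stood above all other groups, which overlapped among neighbours in the order of means. Its light response was 0.02 in LP08 (SE 0.456, adjusted p = 0.991) and 2.02 in Chiifu (SE 0.453, adjusted p = 0.00237). In light it was lower in LP08 than in Chiifu, at -1.42 (SE 0.450, adjusted p = 0.0242), and it was the only member with a called decrease in this comparison. That call was lost without LP08 light replicate 1 (-1.32, adjusted p = 0.0789) or 2 (-1.40, adjusted p = 0.0665) and without Chiifu light replicate 1 (-1.37, adjusted p = 0.0572) or 2 (-1.42, adjusted p = 0.0522). In the dark the line difference of 0.58 did not pass the test (SE 0.458, adjusted p = 0.308), and it ran from 0.06 without LP08 dark replicate 2 to 1.11 without Chiifu dark replicate 2. The LP08 light response ran from -0.37 without LP08 dark replicate 3 to 0.54 without LP08 dark replicate 2, and did not pass the test in either.

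Bra010644, the other CYP79B2 copy, was counted with few reads, 2 to 123 per library. It had 1.14, 1.93 and 1.80 CPM in LP08 light libraries and 0.390, 2.19 and 0.895 CPM in LP08 dark libraries. It had 0.871, 1.14 and 1.30 CPM in Chiifu light libraries and 0.127, 0.485 and 0.0400 CPM in Chiifu dark libraries. Chiifu dark lay below Chiifu light without overlap, and the other 3 groups overlapped with their neighbours. The dark groups of the lines overlapped, with 0.390 CPM in LP08 replicate 1 and 0.485 CPM in Chiifu replicate 2. The light response was 0.48 in LP08 (SE 0.641, adjusted p = 0.525) and 2.28 in Chiifu (SE 0.713, adjusted p = 0.0132). The LP08 value was 1.34 without LP08 dark replicate 2 (adjusted p = 0.105), 0.33 without LP08 dark replicate 3 (adjusted p = 0.728) and 0.07 without LP08 dark replicate 1 (adjusted p = 0.945). The Chiifu value was 2.00 without Chiifu dark replicate 1 (adjusted p = 0.0522) and 3.64 without Chiifu dark replicate 2. LP08 was higher in the dark by 2.36 (SE 0.718, adjusted p = 0.0155), but at 1.50 without LP08 dark replicate 2 (adjusted p = 0.102), 2.07 without Chiifu dark replicate 1 (adjusted p = 0.0597) and 3.71 without Chiifu dark replicate 2. In light the line difference was 0.55 (SE 0.636, adjusted p = 0.502).

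Bra034941 (CYP83B1), the indolic counterpart of CYP83A1, varied least between groups of the 7 members, with group means between 57.8 and 117 CPM. It had 105, 102 and 119 CPM in LP08 light libraries and 100.2, 113 and 49.3 CPM in LP08 dark libraries. In Chiifu it had 130.1, 122 and 99.7 CPM in light and 57.6, 79.7 and 36.2 CPM in the dark. The Chiifu groups did not overlap, and each group overlapped with the next in the order of means, Chiifu light, LP08 light, LP08 dark and Chiifu dark. The light response was 0.32 in LP08 (SE 0.302, adjusted p = 0.371, 95% interval -0.34 to 0.98) and 1.02 in Chiifu (SE 0.302, adjusted p = 0.0106), a 2.03-fold rise. Line differences were -0.11 in light (SE 0.302, adjusted p = 0.792, 95% interval -0.77 to 0.55) and 0.59 in the dark (SE 0.303, adjusted p = 0.118). The dark difference passed the test without LP08 dark replicate 3 (0.88, adjusted p = 0.0172) or Chiifu dark replicate 2 (0.90, adjusted p = 0.0330). It was smaller without Chiifu dark replicate 3 (0.35, adjusted p = 0.338) or LP08 dark replicate 2 (0.37, adjusted p = 0.376). The LP08 light response was 0.54 without LP08 dark replicate 2 (adjusted p = 0.177) and 0.03 without LP08 dark replicate 3 (adjusted p = 0.938).

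The dark libraries numbered 3 were low in indolic transcripts. Chiifu dark replicate 3 had the lowest level of its group for 4 of 4 indolic members and LP08 dark replicate 3 for 3 of 4. Of the aliphatic members, 0 of 3 were lowest in Chiifu dark replicate 3 and 1 of 3 in LP08 dark replicate 3. These libraries were the smallest of their groups, with 48970199 and 48773088 reads, and features with an ENSRNA prefix took 2.90% of reads in Chiifu dark replicate 3, the highest share of the 12 libraries. Chiifu dark replicate 3 also had the lowest mean correlation of log2 CPM with its own group, 0.965. LP08 dark replicate 3 stood out less, with an ENSRNA share of 1.34% against 1.79% in LP08 dark replicate 2. Its mean correlation, 0.986, was the highest of its group, and LP08 dark replicate 1 had 49365785 reads. The part of the dark libraries numbered 3 in the results was not tested. Without both of them, an alternative chosen after seeing the data, 4 members were called for light in LP08 and 6 in Chiifu, as with all libraries. Of all tested features 68.1% in LP08 and 66.7% in Chiifu were then called, in either direction. Between the lines 5 members were called in light, as with all libraries, and 52.6% of tested features were. In the dark 5 members were called, against 4 with all libraries, and 49.6% of tested features. For the difference of the light responses 5 were called, against 4, and 29.8% of tested features. Across members the coefficient of variation had a median of 8.58% in LP08 light, 47.4% in LP08 dark, 13.4% in Chiifu light and 49.7% in Chiifu dark (n = 3 libraries each).

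**Figure D2:**
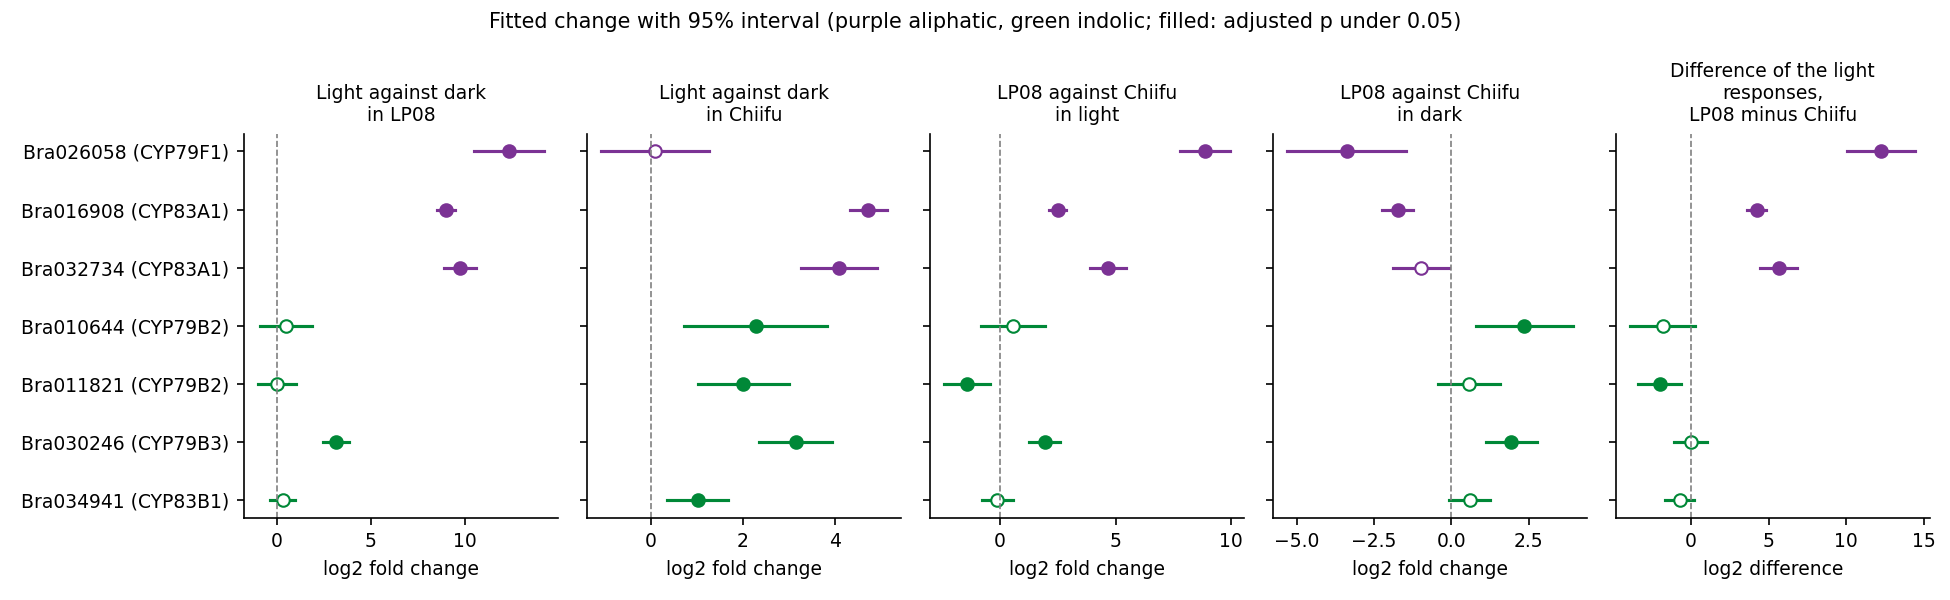
Log2 fold change of each member with its 95% interval in the 4 comparisons, and the difference of the light responses at the right; axes differ between panels, filled points passed the test, and purple marks aliphatic and green indolic members. The aliphatic members lie at 8.98 to 12.34 for light in LP08, and the indolic members at 0.02 to 3.14.

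Between the lines in light, LP08 was higher for 3 of 3 aliphatic members and for 1 of 4 indolic members, CYP79B3, where 21.4% of tested features were called higher. It was lower for 1 indolic member, where 25% of tested features were called lower. In the dark the aliphatic branch ran the other way, with 2 of 3 members lower in LP08 and 27.9% of tested features called lower. There 2 of 4 indolic members, CYP79B3 and the CYP79B2 copy Bra010644, were higher in LP08, with 25.4% of tested features called higher. The call of Bra010644 was lost in 3 of 22 other settings. The median log2 fold change of LP08 over Chiifu was 4.67 for aliphatic, 0.22 for indolic and -0.02 for all tested features in light. In the dark it was -1.74 for aliphatic, 1.27 for indolic and 0 for all tested features.

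The difference of the light responses was tested directly. It was positive, a larger rise in LP08, for 3 of 3 aliphatic members, where 14.8% of tested features were called higher. The differences, LP08 minus Chiifu on the log2 scale, were 12.24 for CYP79F1 (SE 1.00, adjusted p = 1.45e-05), 5.65 for Bra032734 (SE 0.549, adjusted p = 6.37e-05) and 4.24 for Bra016908 (SE 0.285, adjusted p = 5.12e-06). For CYP79F1 it was 13.57 without LP08 dark replicate 3. Of the 4 indolic members, 1 had a called negative difference, where 14.4% of tested features were called lower. That member was the CYP79B2 copy Bra011821 at -2.003 (SE 0.642, adjusted p = 0.0376). Its call was lost when any of 9 libraries was left out, with values of -2.07 to -1.48 and adjusted p of 0.0618 to 0.102. The call held when Chiifu dark replicate 2, LP08 dark replicate 3 or LP08 light replicate 3 was the library left out. The other CYP79B2 copy was at -1.80 (SE 0.959, adjusted p = 0.177), at -3.16 without Chiifu dark replicate 2 (adjusted p = 0.0244) and at -0.95 without LP08 dark replicate 2 (adjusted p = 0.490). CYP83B1 was at -0.70 (SE 0.428, adjusted p = 0.241), and at -0.46 without Chiifu dark replicate 3 (adjusted p = 0.401), so neither of these indolic genes was shown to respond differently between the lines with all libraries.

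The balance of the branches in a library was taken as the mean log2 CPM of the 4 indolic members minus that of the 3 aliphatic members. Apart from the prior count, which weighs on low counts, this balance does not depend on how the library is scaled. With the same limit, its change between groups does not depend on gene length. Only differences of it between groups are interpretable. LP08 light libraries had -5.41, -5.27 and -5.25, and LP08 dark libraries 3.80, 4.76 and 3.00. Chiifu light libraries had -0.64, 0.58 and -0.27, and Chiifu dark libraries 1.36, 1.07 and -0.74. LP08 thus had the lowest values of all libraries in light and the highest in the dark, and the Chiifu libraries lay between them. Light minus dark was -9.16 in LP08, and the LP08 groups did not overlap. In Chiifu it was -0.67, and the groups overlapped through Chiifu dark replicate 3. Without that library it was -1.32 and the groups did not overlap, and over the 6 libraries left out in turn it ran from -1.32 to -0.27. As the log2 ratio of summed CPM, whose change between groups does depend on gene length, the Chiifu value was -2.84 without overlap. The member with the lowest mean CPM over the 12 libraries was Bra016908 in the aliphatic branch and Bra010644 in the indolic branch. Taken as a mean without these members, the Chiifu value was 0.10 with overlap. LP08 minus Chiifu was -5.20 in light and 3.29 in the dark, without overlap in either. The dark value was smaller, and the groups still did not overlap, with a prior count of 20 in place of 2 in log2 CPM (2.09) and as the ratio of summed CPM (2.08).

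**Figure D3:**
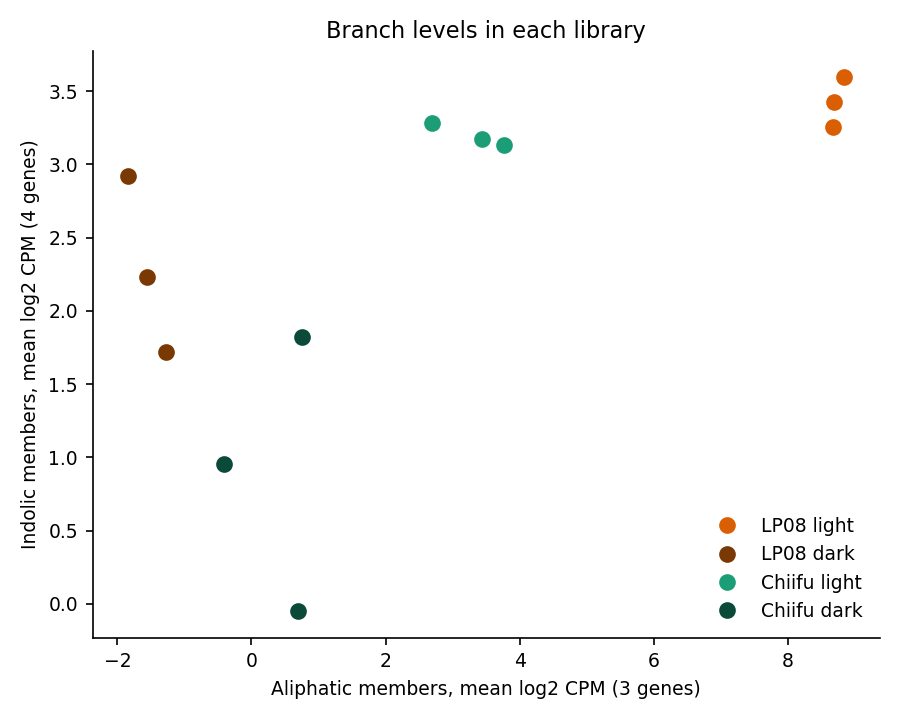
Mean log2 CPM of the 3 aliphatic members (horizontal) and the 4 indolic members (vertical) in each of the 12 libraries, coloured by group. LP08 light and dark libraries lie at opposite ends of the aliphatic axis, at 8.67 to 8.84 and -1.84 to -1.28, with Chiifu libraries from -0.40 to 3.77 between them.

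Group means of the aliphatic members spanned a wider range than those of the indolic members. The aliphatic mean log2 CPM was 8.73 ± 0.09 in LP08 light and -1.56 ± 0.28 in LP08 dark, against 3.30 ± 0.55 in Chiifu light and 0.35 ± 0.65 in Chiifu dark (SD, n = 3 each). The indolic members averaged 3.42 ± 0.17 in LP08 light and 2.29 ± 0.60 in LP08 dark, against 3.19 ± 0.08 in Chiifu light and 0.91 ± 0.94 in Chiifu dark (SD, n = 3 each). The median light response was 9.75 for aliphatic and 0.40 for indolic members in LP08, against 4.10 and 2.15 in Chiifu. Over all tested features it was -0.04 in LP08 and 0 in Chiifu. No p is given for these branch values because the members were a chosen list.

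The copies of a pair took different shares of the counted reads in the lines. Of the reads of the CYP83A1 pair, Bra032734 took 82.2%, 82.3% and 81.6% in LP08 light libraries and 81.1%, 77.1% and 52.1% in LP08 dark libraries. In Chiifu it took 55.1%, 45.5% and 48.4% in light and 49.1%, 59.9% and 68.8% in the dark. These shares depend on the unknown lengths of the copies, but their differences between groups do so only in size. The light groups of the lines did not overlap, whereas the dark groups did. The log2 ratio of Bra032734 to Bra016908 was higher in LP08 than in Chiifu by 1.48 over both treatments, with an exact two-sided permutation p = 0.015 over 400 arrangements and an adjusted p = 0.03 over 4 tests (the smallest exact p that the arrangements allow is 0.005). The difference was 2.22 in light and 0.75 in the dark, where LP08 libraries had only 90, 70 and 48 reads of the pair. Light against dark, averaged over the lines, gave 0.16 (exact permutation p = 0.755, adjusted p = 0.755). The lines went in opposite directions, which this average hides. In LP08 the mean log2 ratio was 2.20 in light and 1.30 ± 1.04 in the dark (SD). In Chiifu it was -0.02 in light and 0.55 ± 0.59 in the dark (SD). Whether the light effect on this ratio differs between the lines was not tested.

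For the CYP79B2 pair the share of Bra011821 was 82.5%, 75.9% and 80.5% in LP08 light libraries and 94.1%, 82.0% and 72.8% in LP08 dark libraries. In Chiifu it was 95.4%, 93.7% and 92.3% in light and 96.6%, 93.3% and 98.1% in the dark. LP08 lay below Chiifu without overlap in light, and in the dark LP08 replicate 1 reached the Chiifu range. The log2 ratio of Bra011821 to Bra010644 was lower in LP08, by -2.04 over both treatments (exact two-sided permutation p = 0.01, adjusted p = 0.03). It differed by -1.97 in light and -2.12 in the dark. The dark value rests on few reads of Bra010644, with 8, 33 and 2 in Chiifu dark libraries and 20, 123 and 44 in LP08 dark libraries. Light against dark gave -0.62 (exact permutation p = 0.2, adjusted p = 0.267). Without Chiifu dark replicate 1 or LP08 dark replicate 2 the adjusted p of the line difference was 0.06 for either pair, and for the CYP83A1 pair also without LP08 dark replicate 1. The log2 differences then were -2.01 and -1.96 for CYP79B2, and 1.33, 1.38 and 1.29 for CYP83A1, in that order. How many reads of such copies were shared or lost in counting could not be checked. Nor could it be checked whether reads of both lines matched the counted genes equally well.

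**Figure D4:**
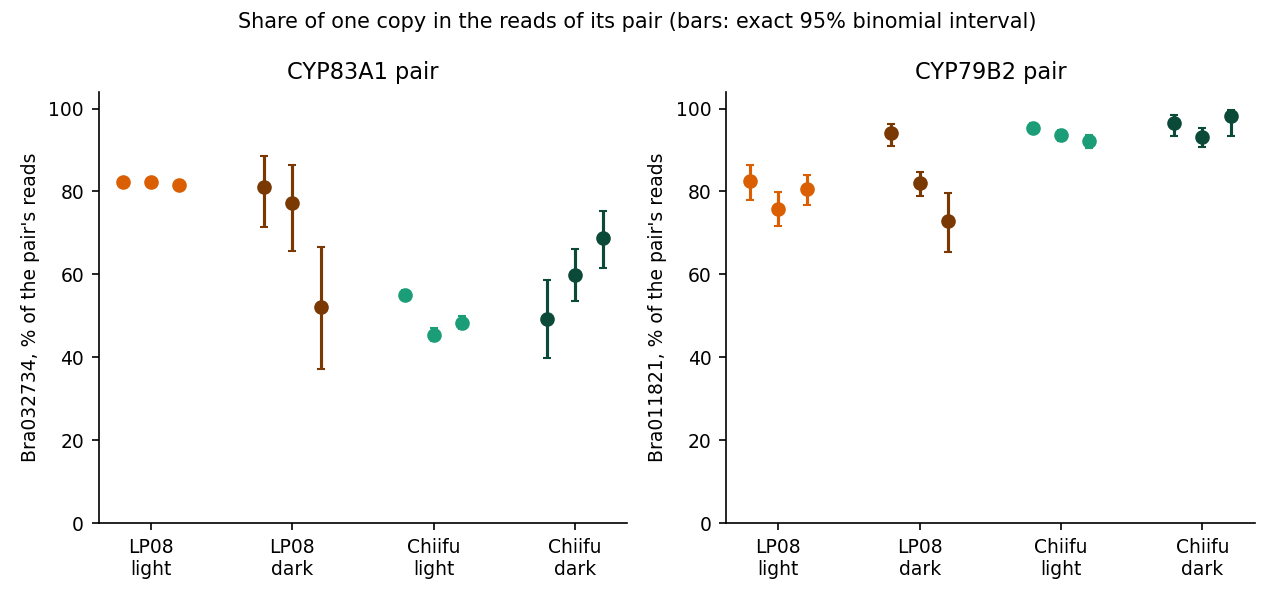
Share of Bra032734 in the reads of the CYP83A1 pair (left) and of Bra011821 in the reads of the CYP79B2 pair (right), in percent, for each library with its exact (Clopper-Pearson) 95% binomial interval, which covers counting error only. Bra032734 is at 81.6% to 82.3% in LP08 light and 45.5% to 55.1% in Chiifu light.

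Likeness of profiles was measured as the root-mean-square difference of log2 CPM over the 12 libraries, each gene centred on its own mean, among features with a mean of at least 1 CPM. For each aliphatic member the nearest other member was aliphatic. Bra016908 was the nearest member to Bra032734, at 0.96 and rank 9 of 25788 features, and Bra032734 was nearest to CYP79F1 at 1.95 and rank 21. Bra032734 was in turn the nearest member to Bra016908, with rank 22. Among indolic members CYP83B1 and Bra011821 were nearest to each other, at 0.57, but the rank was 48 as seen from Bra011821 and 3397 as seen from CYP83B1. The nearest members to Bra010644 and Bra030246 had ranks 1421 and 1200. Outside the members, Bra023450 was closest to the mean aliphatic profile (0.40 over 12 libraries). It had 123 ± 13.1 CPM in LP08 light, 0.0266 ± 0.0230 CPM in LP08 dark, 1.65 ± 0.43 CPM in Chiifu light and 0.279 ± 0.160 CPM in Chiifu dark (SD, n = 3 each). Bra018521 followed (0.53), with 25.8 ± 3.17 CPM in LP08 light, no read in LP08 dark, 0.774 ± 0.404 CPM in Chiifu light and 0.0631 ± 0.0852 CPM in Chiifu dark. Closest to the indolic profile were Bra031289 (0.28) and Bra009238 (0.29). Bra031289 had 24.6 ± 1.47 CPM in LP08 light, 10.4 ± 0.81 CPM in LP08 dark, 17.2 ± 0.95 CPM in Chiifu light and 4.21 ± 1.91 CPM in Chiifu dark (SD, n = 3 each). The sources used here give no name for these 4 features.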

How the data were processed

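The authors deposited 1 table of read counts per library, and its values are whole numbers whose totals differ between libraries, as raw counts do. FastQC, TopHat2, featureCounts and edgeR are named in the submitters' processing notes, without versions or roles. Per the labels' protocols, libraries were made with a TruSeq Stranded mRNA kit. Genome build, annotation and strand setting remain not given in the sources used here.

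The fit used edgeR 4.0.16 in R 4.3.3. Low features were removed by filterByExpr (minimum count 10, minimum total 15), which left 31239, and libraries were scaled by TMM. A mean per group was fitted over all 12 libraries and tested by edgeR's quasi-likelihood method with robust estimation, adjusted over all tested features. Standard errors come from the fitted weights and the posterior quasi-dispersion, with 95% intervals from the t distribution. Log2 CPM used a prior count of 2, and copy ratios added 0.5 counts. The procedure was checked on simulated data in which few features were changed. That check does not speak for comparisons in which many features change, as here. DESeq2 1.42.0 and limma 3.58.1 served as alternatives.

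All 7 members were named. The other features named were the 2 nearest to each branch profile. Members and lists were chosen with earlier results of these data known. Of 41 symbols of other glucosinolate genes, 1 was in the RefSeq table (assembly CAAS_Brap_v3.01) and 0 could be joined to the count IDs, so the rest of the pathway was not tested.

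Every pair of replicates differed by more than counting noise (chi-square per degree of freedom at least 13.7).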

Additional observations from a re-analysis of the deposited data

Results flagged for a closer look

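The light responses of 4 members differed between the lines by the edgeR test of the difference itself (LP08 minus Chiifu, log2). Of all tested features 14.8% were called higher and 14.4% lower in this comparison. For Bra026058 (CYP79F1) the difference was 12.24, for Bra032734 (CYP83A1) 5.65 and for Bra016908 (CYP83A1) 4.24. For Bra011821 (CYP79B2) it was -2.003, with a call that was lost when any of 9 libraries was left out, as given above. Groups of 3 libraries are too small for a check of single outlying samples.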

How the results depend on the processing

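The sign of every called change of a member was the same in all 22 alternatives (21 for the difference of the light responses). No call of an aliphatic member was lost in any of them. Over these settings the number of called members stayed at 4 for light in LP08 and ran from 5 to 6 for light in Chiifu, 4 to 5 for LP08 against Chiifu in light, 3 to 5 in the dark, and 3 to 5 for the difference of responses. The share of all tested features called, in either direction, ran from 56.5% to 75.3%, 56.1% to 70.7%, 37.5% to 55.9%, 43.8% to 55.0% and 21.4% to 33.7% in these 5 comparisons. With library totals in place of TMM the median log2 fold change of all features shifted to -0.24 for light in LP08, to -0.10 in Chiifu and to -0.19 for the lines in light. The difference of Bra011821 also lost its call with no filter on low counts (-1.999, adjusted p = 0.0501), and the dark line difference of Bra010644 with only the libraries compared in the fit (2.33, adjusted p = 0.062). The dark difference of Bra032734 passed with library totals (-1.04, adjusted p = 0.0459) and in DESeq2 (-1.003, adjusted p = 0.0254). Without both dark libraries numbered 3, CYP83B1 passed for the dark line difference (0.63, adjusted p = 0.0142) and for the difference of responses (-0.74, adjusted p = 0.0355). The causes of these shifts were not tested.

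The branch balance depended on how members were averaged. Without the member of lowest mean level over the 12 libraries in each branch (Bra016908 and Bra010644) it was -5.01 in LP08 light, 4.73 in LP08 dark and 1.74 in Chiifu light. As the log2 ratio of summed CPM it was -3.57 in LP08 light, 6.01 in LP08 dark, 1.09 in Chiifu light and 3.93 in Chiifu dark. Light minus dark in Chiifu was then 0.10 and -2.84, so its direction is not settled, whereas in LP08 it was -9.74 and -9.58. The value of 0.10 leaves out Bra016908, whose light response in Chiifu was 4.74, and keeps CYP79F1, whose response there was 0.09. With a prior count of 20 light minus dark was -8.20 in LP08 and -1.03 in Chiifu, and LP08 minus Chiifu was -5.08 in light and 2.09 in the dark. Over left-out libraries the line difference of the copy ratio was -2.41 to -1.77 for the CYP79B2 pair and 1.29 to 1.78 for the CYP83A1 pair.

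Replicate numbers were not treated as a pairing: once group means were removed, same-numbered libraries correlated by more than 0.1 in 8 of 18 pairs (range -0.25 to 0.30). With the replicate block 4, 6, 5, 4 and 4 members were called in the 5 comparisons, as without it, and 67.5%, 66.3%, 44.9%, 51.8% and 27.3% of tested features. Few reads in the dark limit CYP79F1 (15 in LP08), Bra010644 (43 in Chiifu), Bra016908 (56 in LP08) and Bra030246 (66 in Chiifu).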
